A study of Rattus norvegicus with 6 samples.

Results

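Molecular chaperones are proteins that help other proteins fold, and the gene group described here holds the heat shock protein families of rat together with their DnaJ co-chaperones. Members were chosen by symbol alone, ignoring case. The group takes the Hsp70 and Hsp110 genes, the small heat shock protein genes, the mitochondrial chaperonin, the heat shock factors, all DNAJ genes, the subunits of the cytosolic chaperonin CCT, the BAG genes, Stip1 and 6 named chaperones of the endoplasmic reticulum (ER). The rule found 101 rows with 97 symbols, of 26406 rows and 19623 symbols in the table. Hsp90aa1 and Hsp90ab1, the cytosolic Hsp90 genes, lie outside the rule and are given below among the partner genes.

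The study sequenced RNA from neural retina of 6 rat samples at postnatal day 60. Of these, 2 were Royal College of Surgeons (RCS) rats with a subretinal graft of human neural progenitor cells (hNPCs) given at postnatal day 21, 2 were RCS rats with sham surgery, and 2 were Long Evans rats with sham surgery. RCS is a strain whose photoreceptors degenerate, Long Evans served as the wild type, and sham eyes received the carrier medium. Only the portion of retina with the graft, or its match in sham eyes, was taken, and the labels do not say whether samples are separate animals. The values come from a single column of FPKM (fragments scaled to transcript length and to the number of mapped fragments) that names no sample, so it may be 1 library or a pool. No group is compared, no standard deviation is given, and each value is the authors' own with its deposited interval. Levels are compared between genes only, on the FPKM scale, which is per transcript length. In such bulk RNA fewer cells of a type and less RNA per cell cannot be told apart.

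The table looked like retina by its markers. The 4 rod genes set as markers stood at 518 to 6641 FPKM, the 3 Müller glia genes at 58.4 to 617 FPKM and the 3 inner neuron genes at 123 to 512 FPKM. The 3 liver genes, a tissue that should be absent, were at 0 to 0.614 FPKM. Markers of other cell types were also listed. The 4 microglia and macrophage genes lay between 0 and 4.12 FPKM with Cd68 listed at 0, and the 2 globin genes were at 10.3 and 13.2 FPKM. Of the pigment epithelium genes, Rpe65 was at 20.7 FPKM, below the Müller glia and inner neuron genes. Ttr was at 152 FPKM, within the range of both. The part of these other cell types in the chaperone values was not tested, nor was that of rat-mapped RNA from the human graft.

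Hsp70 proteins bind unfolded stretches of other proteins and release them in a cycle driven by ATP. DnaJ (Hsp40) proteins deliver the client and start ATP hydrolysis, while Hsp110 and several BAG proteins release the nucleotide. Each folding compartment has its own set: Hspa8 and the inducible Hspa1 genes in the cytosol, Hspa5 (BiP) with Hsp90b1 (GRP94), calnexin and calreticulin in the ER, and Hspa9 with the Hspd1/Hspe1 chaperonin in mitochondria. Heat shock factors bind inverted repeats of the unit nGAAn, whereas the ER genes are known for an ER stress element read by ATF6 and NF-Y. Photoreceptors make large amounts of membrane protein and trafficking protein, and several DnaJ proteins have known roles in the synapse and in the photoreceptor cilium.

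The promoter stretches that carry these motifs are shown first, because they are the known control elements of these families. The windows are RefSeq's, on build GRCr8, and run from 250 bases before to 50 bases after the annotated start. A window was found for 77 of the 97 members. The 20 without one include Hspa1b, Dnaja2, Pdia3 and Pdia6, so their promoters were not searched. The stretch around the motif is printed 5′ to 3′ on the strand of the gene, with motif bases in capitals. The first 3 hold a heat shock element of 3 units, the known binding form of heat shock factor 1: Hspa8 (chr8:50080429-50080501, plus strand), Hspe1 (chr9:64084232-64084309, plus strand) and Hsph1 (chr12:10427302-10427367, plus strand).
Hspa8: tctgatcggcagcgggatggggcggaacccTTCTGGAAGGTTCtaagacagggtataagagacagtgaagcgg
Hspe1: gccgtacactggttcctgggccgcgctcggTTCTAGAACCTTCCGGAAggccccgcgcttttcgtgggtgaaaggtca
Hsph1: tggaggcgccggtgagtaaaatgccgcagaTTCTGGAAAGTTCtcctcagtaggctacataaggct

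The windows of Hspe1 and Hspd1, the 2 chaperonin genes of mitochondria, run in opposite directions and share 211 bases, so the capitals of Hspe1 are also the element of Hspd1 read from the other strand. In that stretch 2 overlapping matches make up the capitals. The Hspa8 window holds a second match farther from the start, which is not shown. Cct4 and Dnaja1 hold a match after the annotated start (bases 26 to 38 and 10 to 22), and their sequence is not shown. The next 5 stretches hold the ER stress element: CCAAT, then 9 bases of any kind, then CCACG, on either strand. They belong to Hsp90b1 (chr7:23012317-23012499, minus strand), Calr (chr19:40213117-40213183, plus strand), Hspa5 (chr3:38452943-38453015, plus strand), Canx (chr10:35158039-35158107, minus strand) and Dnajc3 (chr15:102432504-102432582, plus strand).
Hsp90b1: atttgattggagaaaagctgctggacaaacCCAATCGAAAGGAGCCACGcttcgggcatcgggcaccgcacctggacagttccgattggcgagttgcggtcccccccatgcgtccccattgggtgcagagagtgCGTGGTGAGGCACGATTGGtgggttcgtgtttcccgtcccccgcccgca
Calr: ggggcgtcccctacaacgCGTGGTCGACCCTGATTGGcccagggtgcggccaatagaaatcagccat
Hspa5: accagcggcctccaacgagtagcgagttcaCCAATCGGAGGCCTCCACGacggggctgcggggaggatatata
Canx: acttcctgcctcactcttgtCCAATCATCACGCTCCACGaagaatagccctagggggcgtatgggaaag
Dnajc3: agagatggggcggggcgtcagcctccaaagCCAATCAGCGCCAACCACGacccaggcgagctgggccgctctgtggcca

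The motifs were counted by class of member, as a description with no test between classes. The ER stress element was found in 5 of 77 member windows, all 5 among the 16 ER members with a window, and in none of the 40 cytosolic or 5 mitochondrial windows. Over all 12970 symbols with a window it was present in 0.123%. The 3-unit heat shock element was found in 6 member windows (7.79%), 4 of 40 cytosolic and 2 of 5 mitochondrial, and in none of the 16 ER windows, against 0.540% of all symbols. The 2 mitochondrial matches are the stretch that Hspd1 and Hspe1 share. The looser 2-unit core (GAANNTTC or TTCNNGAA, contained in every 3-unit element) was found in 21 of 77 member windows (27.3%), against 13.1% of all symbols. By class it was in 3 of 5 mitochondrial windows, 1 of 16 ER windows and 15 of 40 cytosolic windows. Both elements were searched because they are already known from genes of these families. Their higher share among members, and their split by class, are therefore no independent result. A match describes letters in the window and is not a bound site.

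Members with a motif were not at one level. The 5 genes with the ER stress element had a median of 121 FPKM, against 15.7 FPKM for members without it. Over all symbols the medians were 14.4 FPKM for the 16 with this element, these 5 among them, and 4.71 FPKM without it. The symbol rule names Hsp90b1, Calr and Canx one by one, so this gap is not read as an effect of the motif. For the 3-unit heat shock element the medians were 53.8 FPKM with it and 15.2 FPKM without it. The first of these includes Hspa8, whose rows lie on other chromosomes than the promoter shown, and is 31.7 FPKM without it. Over all symbols that element went with a median of 3.01 FPKM, against 4.74 FPKM without it. Members with the 2-unit core had a median of 30.1 FPKM, against 13.5 FPKM without it, and over all symbols the medians were 3.21 FPKM with it and 4.95 FPKM without it. Hspb1 and Bag3, both known as heat-inducible, have the core in their windows and were at 1.75 and 1.11 FPKM.

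As a group the chaperone genes were widely detected and ranged from 0 to 290 FPKM. At 1 FPKM or more stood 83 of 97 members (85.6%), against 61.0% of all symbols. At 10 FPKM or more stood 60 members (61.9%), against 28.9% of all symbols, and at 100 FPKM or more 6 members (6.19%), against 1.79%. The median member was at 15.9 FPKM and the median of all symbols was 3.17 FPKM. Among symbols at 1 FPKM or more the gap was smaller, with medians of 22.4 FPKM for members and 9.21 FPKM for all symbols. The members held 1.02% of the summed FPKM, and the 5 highest (Hspa8, Hsp90b1, Calr, Hspa5 and Canx) held 27.9% of that part. Listed at 0 were Dnajb8, Dnajc5b, Dnajc5g, Hsf3, Hsf5 and Hspb9. All 101 rows carry the status OK. Read as counting error, the deposited intervals imply a median of 333 fragments per member, 100 or more for 65 members and under 10 for 8 members above 0. The same counts over all symbols are not given here, so these only describe how many fragments the member values rest on.

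Median levels of the 3 folding compartments lay close together, while their composition differed. The 18 ER members had a median of 21.7 FPKM (range 3.63 to 168), the 7 mitochondrial members 24.9 FPKM (9.75 to 41.6) and the 47 cytosolic members 22.4 FPKM (0 to 290). The ER median was 0.969 times the cytosolic one (counting standard error 0.0365) and the mitochondrial median 1.11 times (counting standard error 0.0632). The mitochondrial ratio was below 1 with only members at 1 FPKM or more (0.902), with well established classes only (0.933) and by implied fragments (0.782), so no order of these medians is read. All 18 ER and all 7 mitochondrial members reached 1 FPKM, and so did 40 of the 47 cytosolic members, against 61.0% of all symbols. The symbol rule takes whole cytosolic families but names most ER genes outside DNAJ one by one. These counts are therefore not read as a difference between compartments. The mean of log2(FPKM + 1) was 4.91 for ER, 4.57 for mitochondrial and 3.81 for cytosolic members. Of the summed FPKM of all members, ER members held 29.7%, mitochondrial members 5.84% and cytosolic members 53.0%.

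With the DNAJ genes set apart the order was another. Without them, the 8 ER members had a median of 93.1 FPKM, the 3 mitochondrial members 30.1 FPKM and the 33 cytosolic members 26.4 FPKM, so the ER median was 3.53 times the cytosolic one. This ratio rests on the symbol rule, which names 6 of these 8 ER genes one by one, takes whole cytosolic families and leaves out Hsp90aa1 (430 FPKM) and Hsp90ab1 (199.7 FPKM). A list of 26 other ER folding and quality control genes had a median of 14.04 FPKM. Among DNAJ genes alone the medians were 15.0 FPKM for 10 ER members, 20.2 FPKM for 4 mitochondrial members and 16.1 FPKM for 14 cytosolic members. The lower end of the cytosolic class was made of small heat shock proteins, Hspa1l, Hspa2, Hspa12b, Bag2, Bag3, Cct6b and DNAJ genes such as Dnajb7. The remaining classes were lower, with medians of 10.04 FPKM for 5 vesicle and endosome members, 7.55 FPKM for 8 nuclear members and 7.83 FPKM for 12 members in no class.

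**Figure D1:**
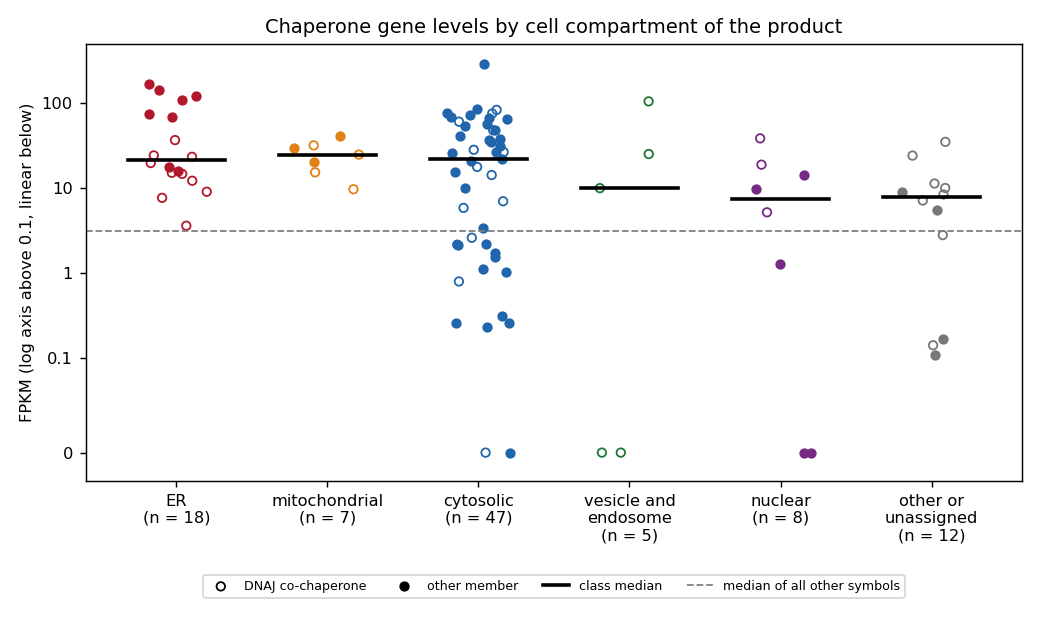
FPKM of each chaperone gene (points, log axis above 0.1) by the compartment of its product, with class medians (bars) and the median of all other symbols (dashed line). ER, mitochondrial and cytosolic medians sit between 21.7 and 24.9 FPKM, and the filled ER points lie mostly above the open DNAJ points.

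In the cytosol the Hsp70 genes covered a wide range of levels. Hspa8, the constitutive Hsp70 that also uncoats clathrin vesicles, was listed in 2 rows at 178 FPKM (deposited interval 173 to 184) and 112 FPKM (108 to 116), which sum to 290 FPKM. Hspa1b, an inducible Hsp70, was listed in 2 rows at 36.5 FPKM (33.8 to 39.1) and 35.6 FPKM (33.0 to 38.2), summing to 72.04 FPKM or 0.248 times Hspa8 (95% counting interval 0.235 to 0.262). Hspa14, an Hsp70 of the ribosome, summed to 26.9 FPKM over 2 overlapping rows of chromosome 17, and Hspa12a, a distant relative, was at 22.4 FPKM (21.3 to 23.5). Hspa2, best known from the testis, was at 3.39 FPKM (2.70 to 4.09), Hspa1l, also of the testis, at 2.19 FPKM (1.60 to 2.78) and Hspa12b, known from endothelium, at 1.03 FPKM (0.702 to 1.36). No row bears the symbol Hspa1a.

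The Hspa8 value depends on which copies of the gene were counted. Its rows (ENSRNOG00000009920 at 17153206 to 17155257 of chromosome 11, and ENSRNOG00000032585 at 103064144 to 103066245 of chromosome 5, build rn5) lie on other chromosomes than RefSeq's Hspa8, which is on chromosome 8. The chromosome 5 row sits inside the span of RGD1306186, which is listed at 0. Both span only about 2 kb (2052 and 2102 bases), and their implied fragments per FPKM and per kilobase of span (11.1 in both) match those of the Hspa1b rows (11.02 in both), whose genes have no introns. RefSeq names 33 Hspa8 pseudogenes in rat. Which copy the fragments came from was not tested, so the 290 FPKM is a value for the symbol and not for one locus. The Hspa1b rows, at 4802581 to 4804506 and 6958076 to 6960001 of chromosome 20, carry 1 symbol. Hspa1a and Hspa1b are known as near-identical genes, so how reads were divided between these rows is uncertain.

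Hsp110 proteins are large relatives of Hsp70 that act as its nucleotide exchange factors. Hspa4l was the highest at 68.9 FPKM (66.5 to 71.2), Hspa4 was at 48.6 FPKM (46.7 to 50.6) and the heat-inducible Hsph1 at 31.7 FPKM (29.9 to 33.5). Each of these steps had a counting interval of the ratio above 1. Among the BAG genes, Bag6 (a triage factor for membrane proteins) led at 35.5 FPKM (33.3 to 37.8), ahead of Bag5 at 26.4, Bag1 at 20.7 and Bag4 at 10.1 FPKM. Bag2 was at 1.54 FPKM (0.895 to 2.18) and Bag3, which directs clients to autophagy, at 1.11 FPKM (0.697 to 1.52), and this last pair did not differ beyond counting error. Bag3 was 0.0535 times Bag1 (0.0365 to 0.0785). Stip1 (HOP), which hands clients on to Hsp90, was at 54.8 FPKM (51.6 to 57.9).

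**Figure D2:**
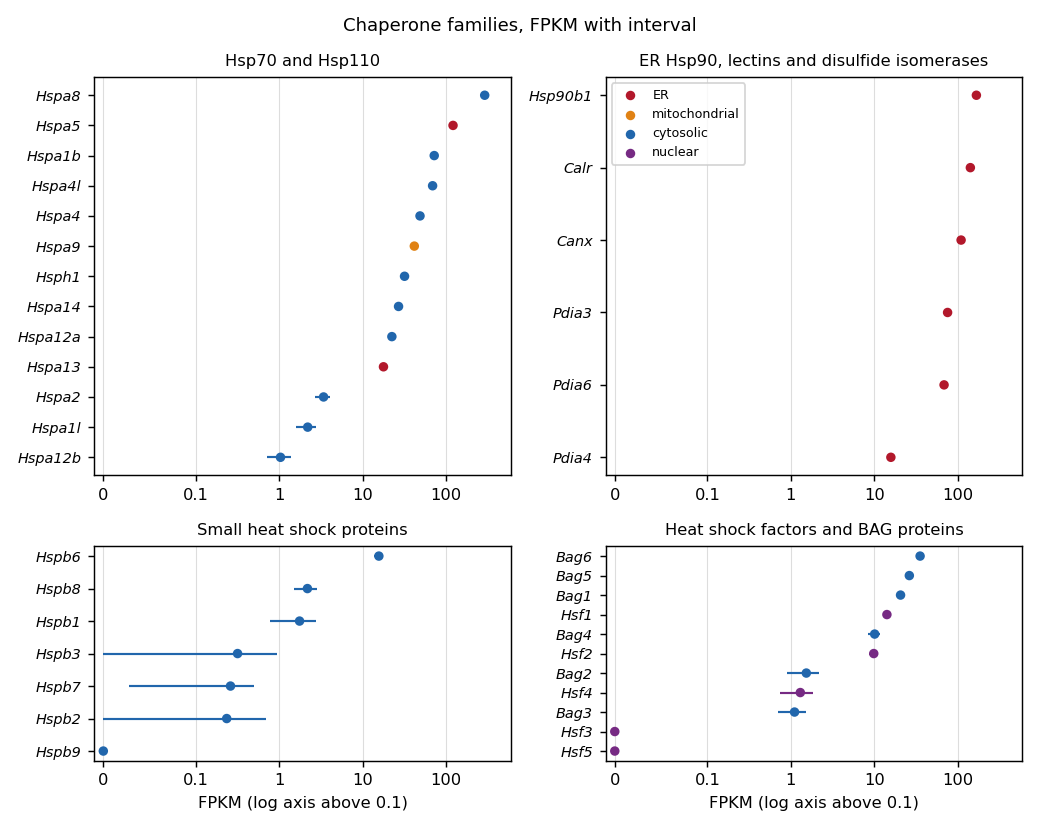
FPKM (log axis above 0.1) with the interval of each gene, for Hsp70 and Hsp110, ER chaperones outside DNAJ, small heat shock proteins, and heat shock factors with BAG genes; colours mark the compartment. Hspa8 at 290 FPKM and Hsp90b1 at 168 FPKM head their panels. Of 7 small heat shock protein genes 6 lie below 3 FPKM, where the median of all symbols is 3.17 FPKM.

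Most small heat shock proteins of the group had scarce transcripts. Of the 7 genes, 3 reached 1 FPKM, against 61.0% of all symbols. Their median was 0.316 FPKM, against 3.17 FPKM for all symbols. These proteins hold unfolded clients without ATP, and most are known from muscle. Hspb6 stood at 15.6 FPKM (13.5 to 17.7), followed by Hspb8, the partner of Bag3, at 2.17 FPKM (1.502 to 2.84) and Hspb1 (Hsp27) at 1.75 FPKM (0.778 to 2.72). Hspb3, Hspb7 and Hspb2 were at 0.316, 0.260 and 0.234 FPKM and rest on 1, 5 and 1 implied fragments, so their order cannot be read. The 2 family members named crystallins, which the symbol rule does not take, stood far higher, with Cryaa at 427 FPKM and Cryab at 182 FPKM. Hspb11 (IFT25), a part of the intraflagellar transport machinery despite its symbol, was at 8.95 FPKM (6.56 to 11.3). The symbol rule also took Hspbap1, which binds Hspb1, at 5.60 FPKM (4.45 to 6.76).

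The heat shock factor genes were at moderate to low level. Hsf1, the main stress factor, was at 14.2 FPKM (12.8 to 15.7) and Hsf2 at 9.88 FPKM (8.71 to 11.1), a ratio of 0.696 (0.597 to 0.811). Hsf4, known from the lens, was at 1.30 FPKM (0.733 to 1.87), and Hsf3 and Hsf5 were listed at 0. Hsf2bp, a binding partner of Hsf2 taken by its symbol, was at 0.166 FPKM on 4 implied fragments.

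CCT (TRiC), a ring of 8 different subunits that folds actin, tubulin and the beta subunits of G proteins, had all 8 subunit genes between 36.8 and 85.1 FPKM. Cct5 was at 85.1 FPKM (80.9 to 89.3), Cct4 at 77.3 FPKM (73.7 to 81.0), Cct2 at 67.96 FPKM (64.4 to 71.6) and Cct3 at 64.8 FPKM (61.3 to 68.4). Below them stood Cct8 at 57.9 FPKM (55.1 to 60.8), Tcp1 at 41.5 FPKM (38.6 to 44.4), Cct7 at 37.9 FPKM (35.5 to 40.2) and Cct6a at 36.8 FPKM (34.3 to 39.2). The highest was 2.31 times the lowest (2.13 to 2.51), with a mean of 58.7 FPKM and a standard deviation over the subunits of 18.4 FPKM. Neighbours in this order differed beyond counting error except Cct2 against Cct3 and Cct7 against Cct6a. Cct6b, the testis counterpart of Cct6a, was at 0.258 FPKM (0.0273 to 0.490), 0.00703 times Cct6a (0.00292 to 0.0169), on 5 implied fragments. Cct8l1 was listed in 2 rows of 0.0547 FPKM each, on 1 implied fragment each. The Cct8 row overlaps that of Usp16, and whether the counting used strand is not given in the sources used here. RefSeq names 14 Cct6a pseudogenes, so the Cct6a value may be affected by reads shared with them, which was not tested.

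**Figure D3:**
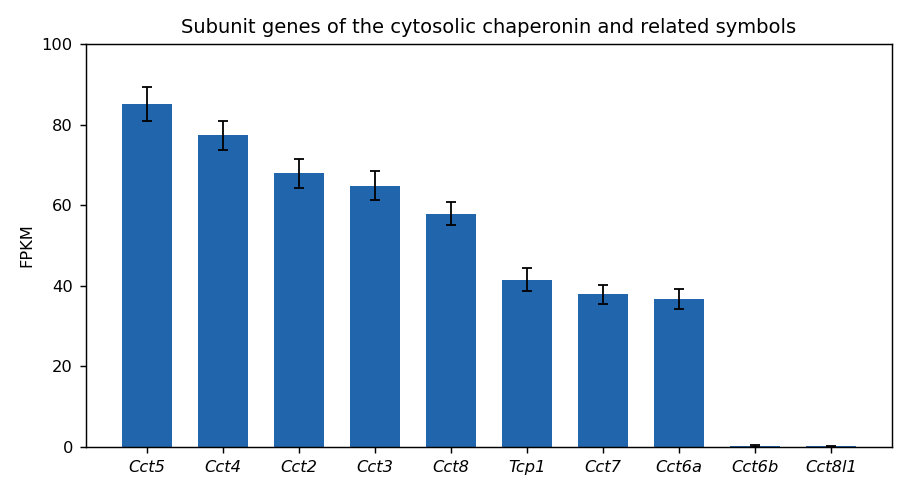
FPKM (linear axis from 0) of the CCT subunit genes, Cct6b and Cct8l1, with intervals as error bars. The 8 subunit genes lie between 36.8 and 85.1 FPKM, and Cct6b and Cct8l1 are near 0.

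The DNAJ genes were the most numerous family, with 44 members, of which 39 reached 1 FPKM, against 61.0% of all symbols. Their median was 14.6 FPKM. The 4 DNAJA genes, the general partners of Hsp70, had the highest median of the 3 subfamilies, 44.6 FPKM, against 12.3 FPKM for 13 DNAJB and 11.4 FPKM for 27 DNAJC genes. Dnaja1 was at 75.9 FPKM (71.7 to 80.1), Dnaja2 at 60.9 FPKM (57.4 to 64.4), 0.802 times Dnaja1 (0.742 to 0.867), and Dnaja4 at 28.4 FPKM (26.03 to 30.8).

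Co-chaperones with known neuronal roles included the highest DNAJ genes of the table. Dnajc5 (cysteine string protein), which guards SNARE proteins on synaptic vesicles, was at 106 FPKM (98.7 to 112), and its relatives Dnajc5b and Dnajc5g were listed at 0. Dnajc6 (auxilin), which brings Hspa8 to clathrin coats in neurons, was at 25.3 FPKM (24.02 to 26.6), and Dnajc5 was 4.17 times as high (3.84 to 4.52). Dnajb2 (HSJ1), a neuronal co-chaperone that sorts clients to the proteasome and is known from photoreceptors, was at 83.8 FPKM (79.6 to 87.98), 3.13 times the stress-inducible Dnajb1 (2.86 to 3.43), which was at 26.7 FPKM (24.6 to 28.8). Dnajb6, an inhibitor of polyglutamine aggregation, was at 5.88 FPKM (4.96 to 6.80), 0.220 times Dnajb1 (0.185 to 0.261). Dnajc13, an endosomal protein, was at 10.04 FPKM (9.34 to 10.8).

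Further DNAJ genes stood between these. Dnajc7, which bridges Hsp70 and Hsp90, was at 48.1 FPKM (44.98 to 51.2). Dnajc8, a spliceosome protein, was at 38.7 FPKM (35.5 to 41.96) and Dnajc9, a histone chaperone partner, at 19.0 FPKM (16.9 to 21.1). Dnajc12, a co-chaperone of aromatic amino acid hydroxylases, was at 35.2 FPKM (31.8 to 38.7). Dnajc27, a small GTPase with a J domain, was at 24.3 FPKM (22.9 to 25.6). The DNAJ genes of the ER and mitochondria named below reach higher values. The 13 DNAJ genes described nowhere else here lay between 2.62 FPKM (Dnajb13) and 17.9 FPKM (Dnajb4). Dnajb3 (2.17 FPKM) and Dnajb7 (0.801 FPKM) are short rows inside the spans of Ugt1a2 and Xpnpep3. The Dnajc22 row, at 0.142 FPKM, lies on chromosome X, whereas RefSeq's Dnajc22 is on chromosome 7, so it is not read as the level of that gene.

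**Figure D4:**
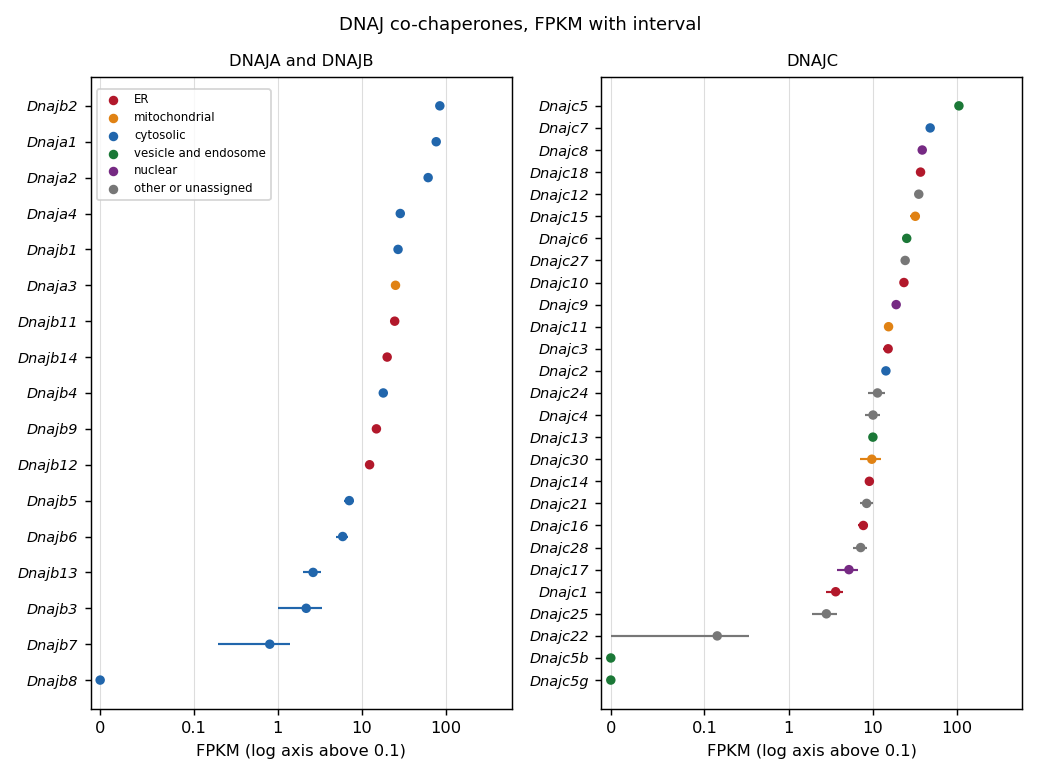
FPKM (log axis above 0.1) of the 44 DNAJ genes with intervals, DNAJA and DNAJB left and DNAJC right, coloured by compartment. Dnajc5 at 106 FPKM and Dnajb2 at 83.8 FPKM head the panels, and Dnajb8, Dnajc5b and Dnajc5g are at 0.

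The 8 ER chaperones outside the DNAJ family ranged from 15.9 to 168 FPKM. Hsp90b1 (GRP94), the Hsp90 of the ER, was at 168 FPKM (164 to 173), and its row (ENSRNOG00000026963) spans 27345730 to 27359757 of chromosome 7 in rn5. Hspa5 (BiP), the Hsp70 of the ER, was at 121 FPKM (117 to 125), at 19157874 to 19162332 of chromosome 3. Hsp90b1 was 1.39 times Hspa5 (1.33 to 1.45), and Hspa5 was 0.417 times the summed Hspa8 (0.400 to 0.434), whose copies are in doubt as described above. With only the higher Hspa8 row the ratio was 0.679. The lectin chaperones for glycoproteins, calreticulin (Calr) and calnexin (Canx), were at 142 FPKM (138 to 147) and 110 FPKM (108 to 113). Canx was 0.774 times Calr (0.746 to 0.804). These 4 genes are 4 of the 5 that hold the ER stress element shown above.

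Among disulfide isomerases, Pdia3, the partner of calnexin and calreticulin, was at 75.9 FPKM (72.8 to 79.0) and Pdia6 at 68.9 FPKM (65.04 to 72.7), or 0.907 times Pdia3 (0.848 to 0.971). Pdia4 was lower, at 15.9 FPKM (14.3 to 17.4) and 0.209 times Pdia3 (0.188 to 0.232). Hspa13, a truncated Hsp70 of microsomes, was at 17.7 FPKM (15.8 to 19.7).

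The 10 DNAJ genes of the ER had a median of 15.0 FPKM. Dnajc18, whose ER class is not well established, led at 36.96 FPKM (33.4 to 40.6). The highest with a well established class was Dnajb11. Dnajb11 (ERdj3), which delivers clients to Hspa5, was at 24.4 FPKM (22.2 to 26.6), 0.201 times Hspa5 (0.183 to 0.221). Dnajc10 (ERdj5), a reductase that opens disulfide bonds before degradation, was at 23.5 FPKM (22.1 to 24.9), Dnajb14 at 19.8 FPKM (17.8 to 21.9), Dnajc3 (p58IPK) at 15.2 FPKM (13.4 to 17.1) and Dnajb9 (ERdj4) at 14.8 FPKM (13.1 to 16.5). Dnajc1 was the lowest ER member, at 3.63 FPKM (2.80 to 4.45).

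The 7 mitochondrial members ranged from 9.75 to 41.6 FPKM. Hspa9 (mortalin), the Hsp70 that pulls proteins into the matrix, was at 41.6 FPKM (38.9 to 44.2). Hspd1 (Hsp60) was at 30.1 FPKM (27.9 to 32.3), 0.724 times Hspa9 (0.658 to 0.797), and its lid Hspe1 (Hsp10) at 20.6 FPKM (16.9 to 24.4), 0.686 times Hspd1 (0.565 to 0.831). Of the co-chaperones, Dnajc15 was at 32.03 FPKM (27.8 to 36.3), Dnaja3 (Tid1) at 24.9 FPKM (22.4 to 27.5), Dnajc11 at 15.4 FPKM (13.8 to 17.0) and Dnajc30 at 9.75 FPKM (7.12 to 12.4). Dnaja3 was 0.600 times Hspa9 (0.533 to 0.675). All 37 rows of the mitochondrial chromosome itself are listed at 0, so these nuclear genes cannot be set beside mitochondrial transcripts.

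**Figure D5:**
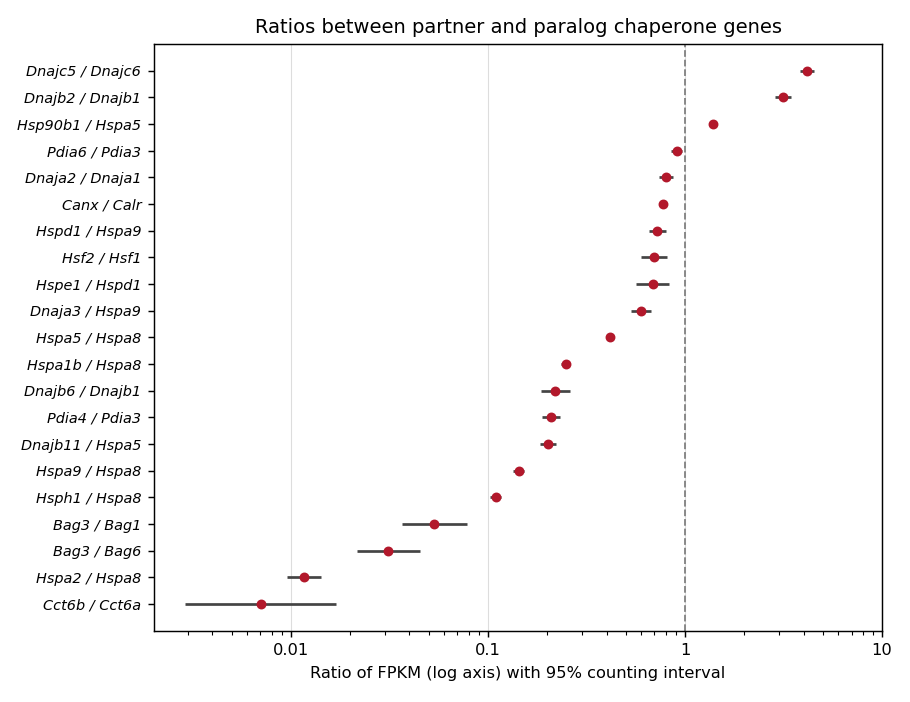
Ratios of FPKM (log axis) between 21 pairs of partner or paralog genes, with 95% counting intervals (lines) and a dashed line at 1. The interval lies above 1 for 3 pairs and below 1 for 18, from 0.00703 for Cct6b over Cct6a to 4.17 for Dnajc5 over Dnajc6. Which gene stands on top was set when the pairs were chosen, so this split is not a result. Of 22 pairs chosen, 21 had a row for both genes, and 5 are ratios to Hspa8, whose copies are in doubt.

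Of 82 partner genes outside the symbol rule, in 7 lists, 80 reached 1 FPKM, against 61.0% of all symbols. Their median was 17.8 FPKM, and that of all symbols was 3.17 FPKM, or 9.21 FPKM for symbols at 1 FPKM or more. Among 13 Hsp90 genes and co-chaperones (median 35.3 FPKM) the highest were Hsp90aa1, the inducible Hsp90, at 430 FPKM (423 to 438) and Hsp90ab1, the constitutive one, at 199.7 FPKM (194 to 205). The 7 Hsp70 exchange, tail and ubiquitin partners had a median of 42.1 FPKM, led by Hsbp1, which binds heat shock factor trimers, at 129 FPKM (122 to 135) and Ubqln1 at 47.98 FPKM (45.2 to 50.7). The 12 prefoldin and CCT partners had a median of 21.2 FPKM, led by Pfdn5 at 88.2 FPKM (80.1 to 96.2) and Txndc9 at 39.8 FPKM (36.2 to 43.3).

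In the ER list of 26 folding and quality control genes, 25 reached 1 FPKM, against 61.0% of all symbols, and the median was 14.04 FPKM. P4hb, the founding disulfide isomerase, was at 69.1 FPKM (65.97 to 72.3) and the prolyl isomerase gene Ppib at 55.8 FPKM (51.1 to 60.5). Of 10 regulators of the unfolded protein response, 9 reached 1 FPKM (median 13.96 FPKM). Atf4, a transcription factor translated under stress, was at 319 FPKM (310 to 328) and Ddit3 (CHOP), its target, at 78.5 FPKM (72.3 to 84.8), whereas Trib3, another known target picked for its low value, had 0.536 FPKM (0.157 to 0.915). The mitochondrial folding and proteolysis list (median 13.5 FPKM) had all 12 of its genes at 1 FPKM or more. The exchange factor Grpel1 was at 37.9 FPKM (34.6 to 41.2) and the protease Yme1l1 at 31.2 FPKM (29.1 to 33.3).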

How the data were processed

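RNA from rat neural retina was sequenced in 6 samples, in 3 groups of 2. The authors deposited FPKM values, with a lower and an upper bound per gene, in the format of Cufflinks, per the file headers; the submitters' processing notes name Cufflinks 2.0.8 and build rn5. No source used here gives the aligner, annotation release, strand setting, confidence level or depth. The column names no sample, so no group was fitted.

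FPKM of rows sharing a symbol (case ignored) were added up, and the error of such a total is the root of the summed squares; 4 members have 2 rows. Starts in the table count from 0 and are given here plus 1. An implied fragment number was taken from each upper bound, read as 2 standard errors above the value. Of 101 member rows, 77 have values fine enough to tell a whole number (rounding error below 0.1), and 59 of these are whole within 0.02 plus rounding. Intervals are therefore read as counting error only, and PCR copies are not separated. Ratios carry 95% counting intervals from these errors. Both calculations were tested on simulated data. The simulated bounds were built as 2 standard errors, so this cannot test how the deposited bounds are read. The simulated ratios used larger mean counts than those of Cct6b and Bag3, so intervals on so few fragments were not tested.

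Compartments, pairs and partner lists came from general knowledge, and members and lists were chosen with earlier results of these data known. Genes were named by a rule: the highest members per class, whole small families, pair members, members at 0 and the 2 highest genes per partner list. Further members are named to complete the accounts. Motifs were searched on both strands of RefSeq promoter windows (GRCr8), matched by symbol; of 101 member rows 98 had a RefSeq symbol. The planned search for protein motifs was not run. Python 3.11.15, numpy 2.4.6, pandas 2.3.3, scipy 1.17.1 and matplotlib 3.10.9 were used.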

Additional observations from a re-analysis of the deposited data

How the results depend on the processing

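Of 123 values recomputed under 11 settings, 83 stayed within counting error (counts within 1.5 times) and 40 moved beyond it. Of the 83, 35 come from keeping rows with status OK only, a setting that could not change any member value. Another 26 come from keeping the highest row per symbol, where only 4 members have 2 rows. The tally is therefore no measure of stability. The count of 83 members at 1 FPKM was 71 at 5 FPKM and 91 above 0. With only the highest row per symbol, ratios to Hspa8 moved to 0.679 for Hspa5, 0.233 for Hspa9, 0.205 for Hspa1b, 0.0190 for Hspa2 and 0.178 for Hsph1, since Hspa8 loses a row; shares of all FPKM were 0.314% for ER, 0.505% for cytosolic and 1.002% for all members, and the cytosolic log2 mean was 3.77. With members at 1 FPKM or more, the cytosolic median was 27.7 FPKM (log2 mean 4.42), and the ER and mitochondrial medians were 0.783 and 0.902 times it. A pseudocount of 0.1 gave log2 means of 4.83 (ER) and 3.35 (cytosolic). With well established classes only, medians were 23.5 (ER) and 26.7 FPKM (cytosolic), ratios to the cytosolic median 0.878 (ER) and 0.933 (mitochondrial), log2 means 5.11 (ER) and 3.99 (cytosolic), and shares 0.285% (ER) and 0.519% (cytosolic). With implied fragments in place of FPKM, ratios of medians were 0.881 (ER) and 0.782 (mitochondrial), and shares 0.484% (ER), 0.0489% (mitochondrial), 0.668% (cytosolic) and 1.32% (all). Without DNAJ genes, medians were 93.1, 30.1 and 26.4 FPKM (ER, mitochondrial, cytosolic), the ER ratio 3.53, and log2 means 6.12 (ER) and 4.94 (mitochondrial). A setting added after seeing the data left out Hspa8 and Dnajc22, whose rows lie on other chromosomes than in RefSeq: the cytosolic log2 mean was 3.71, its share 0.443% that of all members 0.924% and the median with the heat shock element 31.7 FPKM. The strict heat shock element gave 7.79% in place of 27.3%. Rows with status OK only changed no member value, since all member rows have it, and shares of all FPKM shifted only within counting error. The mitochondrial median was thus above the cytosolic one by FPKM (1.11 times) and below it under 3 settings. No paired analysis was possible because every FPKM stands in 1 column that names no sample, and no replicate could be left out either.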

Other observations

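Several chaperone genes lie beside another gene in the table, and these pairs, picked after their values were seen, are given as values. Of 39 pairs of adjacent named rows with at least 1 member and a gap of 1000 bases or less, 11 overlap. Hspd1 (61361746 to 61372172 of chromosome 9, rn5) and Hspe1 (61372462 to 61375650), which lie 289 bases apart, were at 30.1 and 20.6 FPKM. Hspb2 (53774083 to 53775054 of chromosome 8) and Cryab (53775525 to 53779781), both small heat shock protein genes 470 bases apart, were at 0.234 FPKM (0 to 0.701) and 182 FPKM (174 to 189). Pdia3, at 75.9 FPKM, lies between Catsper2 at 0.973 FPKM and Ell3 at 1.08 FPKM. Cct5, at 85.1 FPKM, lies between Cmbl at 5.001 FPKM and Fam173b at 16.0 FPKM.

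The implied fragment numbers were not whole in 18 of the 77 member rows fine enough to tell. The same count over all rows is not given here, so it is not read as a trait of the members. These include both Hspa1b rows and Hspa1l (55.3), and also genes with no second row, such as Dnajb6 (162.7), Dnajc1 (77.5) and Bag4 (157.3). The cause was not tested.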
